A study of Mus musculus with 6 samples.

Results

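G2/M progenitors are the cells of small intestinal organoids that carried transcripts of G2 and mitosis and in which no Lgr5 transcript was counted. They were chosen by 6 measured genes. A cell was kept when it held 1000 or more genes and under 20% of its unique molecular identifiers (UMIs, counted transcripts) in mitochondrial genes. A kept cell was a member when it had no Lgr5 UMI and when Ube2c, Ccnb1, Cdc20, Cenpf and Cenpa together made 15 or more of every 10000 UMIs. This gave 4025 members of 87954 kept cells over 6 single-cell RNA-seq libraries.

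Organoids were collected on day 3. WT mouse organoids, from stocks started from adult mice, received DMSO (-EIPA, 2 libraries) or EIPA, an inhibitor of sodium-proton exchange (+EIPA, 2 libraries). The CRISPR line was WT organoids infected with a lentivirus that carries Cas9 with GFP, inducible by doxycycline (Dox), and a guide RNA. It was grown from single clones and gave 1 library without Dox (-Dox) and 1 with Dox (+Dox), and both hold the lentivirus. Cells were sorted as live, and for +Dox as GFP-positive too, so the sort and Dox cannot be told apart. The study asked how sodium-proton exchange bears on the choices of intestinal stem cells and their descendants.

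Crypt progenitors descend from Lgr5-positive stem cells and divide several times before they become absorptive or secretory cells. In G2 and mitosis, cyclin B with the kinase Cdk1 drives entry into mitosis, kinetochores join chromosomes to spindle microtubules, and a checkpoint holds the anaphase-promoting complex (APC/C) in check until every chromosome is attached. Ccnb1 encodes cyclin B1, Cdc20 activates the APC/C, Ube2c is the ubiquitin-conjugating enzyme of the APC/C, Cenpa is the histone of centromeres and Cenpf is a kinetochore and microtubule protein. Lgr5, a receptor for R-spondins, marks the stem cells of the crypt base.

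Promoters of such genes often hold CCAAT boxes and a short element named CHR, whose core letters are TTTGAA. Both were searched on both strands in the RefSeq promoter table (build GRCm38.p6, 250 bases before to 50 after a gene's start). Of the 5 rule genes and the 97 genes of 6 lists for mitosis, 86 had a promoter there. TTTGAA was in 66.3% of them, in 13% of 23 S-phase genes and in 20.2% of all 27025 symbols in the table. CCAAT was in 72.1%, 56.5% and 41.1%, and both motifs in 53.5%, 8.70% and 7.97%. A match of letters is a description and not a binding site. The 100 bases before the start are given for 3 rule genes and for Cdk1 and Top2a, whose levels are described below, to show how close to the start the letters lie. TTTGAA and CCAAT, or their reverse complements, are in capitals, and no TTTGAA overlapped a CCAAT in these stretches.
Ube2c, chr2:164769829-164769928, plus strand: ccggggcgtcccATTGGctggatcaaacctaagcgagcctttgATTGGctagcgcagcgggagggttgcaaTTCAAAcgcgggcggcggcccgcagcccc
Cdc20, chr4:118437344-118437443, minus strand: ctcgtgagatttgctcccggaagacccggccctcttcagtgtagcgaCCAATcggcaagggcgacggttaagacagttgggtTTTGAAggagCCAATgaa
Ccnb1, chr13:100786487-100786586, minus strand: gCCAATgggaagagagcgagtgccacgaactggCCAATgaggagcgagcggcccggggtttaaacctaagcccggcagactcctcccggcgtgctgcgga
Cdk1, chr10:69352913-69353012, minus strand: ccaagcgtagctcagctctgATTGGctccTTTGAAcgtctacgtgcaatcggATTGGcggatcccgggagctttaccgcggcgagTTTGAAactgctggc
Top2a, chr11:99024190-99024289, minus strand: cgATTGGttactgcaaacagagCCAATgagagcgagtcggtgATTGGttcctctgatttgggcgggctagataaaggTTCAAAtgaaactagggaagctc
TTTGAA began 29 bases before the start of Ube2c, 18 before that of Cdc20, 71 and 15 before that of Cdk1, and 23 before that of Top2a. In Cenpf and Cenpa it began 3 and 17 bases into the transcript, counting its first base as 1. The window of Ccnb1 held CCAAT 2 times, both in the printed stretch, and no TTTGAA.

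Most members carried all of the rule genes. Of 4025 members, 3310 (82.2%) had a UMI of each of the 5, and 4 had only 1 of them. The summed level ran from 15.0 to 52.1 per 10000 UMIs, with a median of 20.3 and quartiles of 17.5 and 24. The median member held 37 UMIs of the 5 genes, and 241 members held under 10. Just outside the limit there were 456 Lgr5-negative cells at 14 to 15 per 10000 (median depth 16992.5 UMIs), and just inside it 423 members at 15 to 16 (median depth 16932 UMIs). The limit cuts through a range of cells rather than a gap.

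The 5 genes did not contribute alike in the 2 lines. Cenpa made 13.5% and 15.5% of the rule genes' UMIs in the -EIPA members and 13.3% and 15.1% in the +EIPA members, but 24% in -Dox and 23.3% in +Dox. Ube2c made 47.1% to 48.5% in the WT libraries and 37.8% and 39.3% in the CRISPR libraries. Ube2c was at 973 and 1005 CPM in -EIPA, 957 and 1031 CPM in +EIPA, 813 CPM in -Dox and 855 CPM in +Dox, and Ccnb1 at 179.8 and 162 CPM in -EIPA, 172 and 158 CPM in +EIPA, 183 CPM in -Dox and 188 CPM in +Dox. Cdc20 was at 208 to 245 CPM, Cenpf at 382 to 417 CPM and Cenpa at 266 to 516 CPM over the 6 libraries, with the highest Cenpa values in -Dox and +Dox. These are values the rule used, and no test was made of them.

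A count of 0 for Lgr5 depends on depth. Each cell with 5000 or more UMIs was thinned at random to 5000, and 41.7% to 49.4% of the Lgr5-positive G2/M cells still held an Lgr5 UMI. Among cells over the G2/M limit, the share with no Lgr5 UMI was 48% (45.4 to 50.6) and 54.4% (52.1 to 56.7) in -EIPA, 45.7% (42.8 to 48.7) and 45.6% (43 to 48.3) in +EIPA, 47.5% (45.1 to 49.8) in -Dox and 31.4% (28.5 to 34.5) in +Dox (exact 95% binomial intervals, counting error only). After thinning it was 74.6% and 77.1%, 73.1% and 76.5%, 74.8%, and 67.7%, and in the thinned cells under the limit 78.2% to 82.3%. Members therefore include cells in which Lgr5 was missed at the depth sequenced, and the name Lgr5-negative stands for no UMI counted.

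Members were deeper than the other kept cells, with medians of 16150 to 22940 UMIs per library against 11327 to 16844. Scrublet called 5.94% to 16.6% of members doublets, a lower share than of the other kept cells in each library (8.75% to 17.2%). The libraries held 295 to 1000 members with 6952122 to 16934087 UMIs in sum, and 1 cell barcode was found among the members of more than 1 library (854 barcodes among kept cells). Levels are given as CPM, a gene's UMIs per 1000000 UMIs summed over a library's members.

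The members made up a smaller share of the cells with EIPA. They were 5.61% (5.21 to 6.02) and 5.49% (5.16 to 5.83) of the kept -EIPA cells and 4.02% (3.70 to 4.37) and 4.39% (4.06 to 4.74) of the kept +EIPA cells, with exact 95% binomial intervals. Both +EIPA shares lay below both -EIPA shares. Dividing the +EIPA by the -EIPA share gave 0.718 for replicate 1 and 0.799 for replicate 2 (0.758 ± 0.0578, SD, n = 2), and an exact two-sided permutation test of 2 against 2 libraries cannot give a p under 0.333. With the rule applied after thinning to 5000 UMIs, the shares were 8.71% (8.20 to 9.25), 8.66% (8.23 to 9.11), 6.83% (6.38 to 7.30) and 7.83% (7.38 to 8.30). The ratios were then 0.784 for replicate 1 and 0.904 for replicate 2, with a mean of 0.844. Cells over the G2/M limit with or without Lgr5 had a ratio of 0.754 and 0.953, and the thinned Lgr5-negative share of those cells had ratios of 0.979 and 0.992.

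In the CRISPR line the members were 4.92% (4.61 to 5.25) of the -Dox cells and 2.44% (2.17 to 2.73) of the +Dox cells. After thinning the values were 8.38% (7.95 to 8.82) and 5.36% (4.96 to 5.79). The +Dox share was the lowest of the 6 libraries on both scales, and +Dox cells were also sorted on GFP and had the deepest members, so no ratio was formed.

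**Figure D1:**
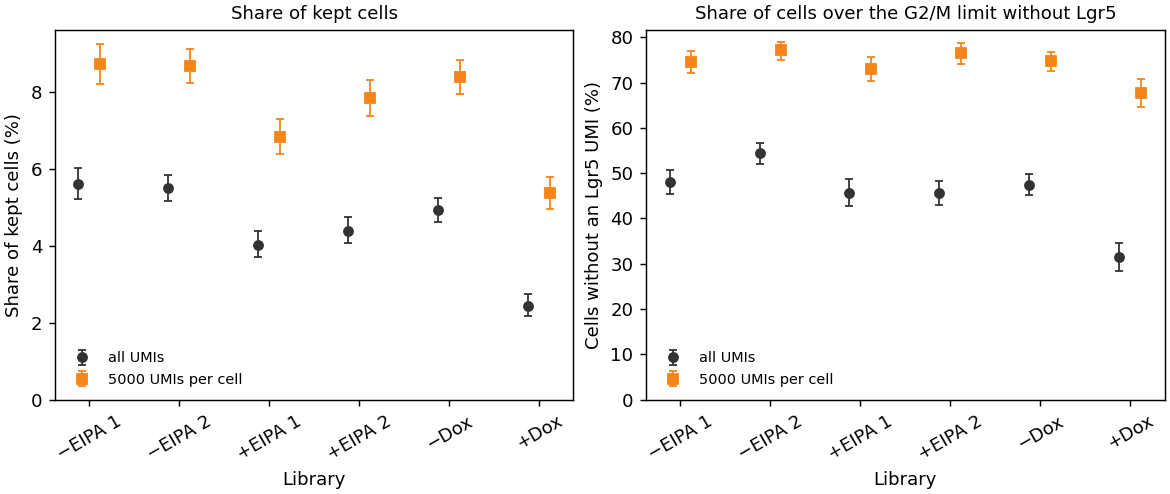
Left, members as a share of kept cells (%) in each library, and right, the share (%) of cells over the G2/M limit without an Lgr5 UMI, with exact 95% binomial intervals; circles use all UMIs and squares 5000 UMIs per cell. The +EIPA shares of 4.02% and 4.39% lie below the -EIPA shares of 5.61% and 5.49%, +Dox is lowest, and thinning lifts every share.

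The rest of the mitotic programme was high in members, though the rule used only 5 of its genes. The comparisons in the next paragraphs are with 3 groups of cells: Lgr5-positive cells over the same G2/M limit (4582 cells), Lgr5-negative cells in S phase (5165 cells, the 10% highest in S-phase genes of each library's Lgr5-negative cells under the limit) and all other kept cells. Since members were chosen on genes that vary with these lists, the differences are descriptions with no test. Over the 6 mitosis lists the summed CPM of members was 2.05 to 2.66 times that of the other kept cells, 1.77 to 1.84 times that of the S-phase cells and 0.96 to 0.982 times that of the Lgr5-positive G2/M cells, over the 6 libraries.

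Cyclins and mitotic kinases were at 2.54 to 3.59 times the other kept cells. In all, 15 of 15 were higher in members than in the other kept cells in each of the 6 libraries. Cdk1, the kinase that drives entry into mitosis, was at 255 and 268 CPM in -EIPA, 248 and 288 CPM in +EIPA, 240.0 CPM in -Dox and 271 CPM in +Dox, against 101 to 114 CPM in S-phase cells and 235 to 266 CPM in Lgr5-positive G2/M cells. The members' range overlapped that of the Lgr5-positive cells and lay above that of the S-phase cells. Cks2, a small subunit of Cdk complexes, was at 409.7 to 477 CPM in members and 130.4 to 201 CPM in the other kept cells.

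Checkpoint and APC/C genes were high as well. In all, 12 of 12 were above the other kept cells in every library. Ube2s, which extends ubiquitin chains for the APC/C, was at 495 to 628 CPM in members and 182 to 268 CPM in the other kept cells. Pttg1, the securin that the APC/C destroys at anaphase, was at 19.4 to 28.1 CPM against 14.7 to 21.9 CPM. Bub3, a subunit of the spindle checkpoint, was at 171 to 206 CPM against 68.5 to 94.9 CPM.

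Genes of the mitotic machinery were high too, and chromosomal passenger and cytokinesis proteins had the highest ratio of summed CPM among the 6 mitosis lists in 5 of 6 libraries (2.61 to 3.64 times the other kept cells). Spindle motors and microtubule proteins were above the other kept cells in every library for 24 of 24 genes, kinetochore and centromere proteins for 20 of 20, chromosomal passenger and cytokinesis proteins for 10 of 10 and condensin and mitotic chromatin proteins for 15 of 16. Cenpe, a kinesin of kinetochores, was at 146 to 172 CPM in members and 38.1 to 54.1 CPM in the other kept cells. Birc5, the survivin subunit of the chromosomal passenger complex, was at 377 to 492 CPM against 120.0 to 172 CPM. Top2a, the topoisomerase that untangles sister chromatids, was at 438 to 602 CPM against 182 to 255 CPM. The plot of list ratios shows these 6 lists to the right of 1 for the other kept cells and for S-phase cells, and near 1 for the Lgr5-positive G2/M cells.

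Against Lgr5-positive G2/M cells, the sums of the mitotic lists lay close to 1. Summed CPM of checkpoint and APC/C genes was 1.02 to 1.06 times that of Lgr5-positive cells, above 1 in 6 of 6 libraries, although only 2 of its 12 genes were higher in all 6 libraries and 5 were lower in all 6. Ube2s, with the highest CPM of that list, was at 441 to 557 CPM in Lgr5-positive cells. Kinetochore and centromere proteins were at 0.899 to 0.96 times, spindle motors and microtubule proteins at 0.931 to 0.969 times and condensin and mitotic chromatin proteins at 0.945 to 0.978 times, each under 1 in all 6 libraries. Top2a was at 488 to 688 CPM in the Lgr5-positive cells, above the members in each library.

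Most S-phase genes were low in members. In all, 26 of 26 were below the S-phase cells in every library, as the choice of those cells fixes in part, and 19 were below the other kept cells in every library and 4 above them (Gins2, Rrm1, Tyms and Tk1). Their summed CPM was 930.0 to 1062 in members, 1098 to 1206 in Lgr5-positive G2/M cells and 1165 to 1581 in the other kept cells. Dut, the dUTPase that protects replicating DNA, was at 126 to 174 CPM in members and 276 to 376 CPM in S-phase cells. The summed CPM of D cyclins and inhibitors of cyclin-dependent kinases, which act in G1, was near that of the other kept cells (0.933 to 1.04 times). Of these 12 genes, 4 were above the other kept cells in every library and 5 below them.

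Stem cell genes other than Lgr5 were lower in members than in Lgr5-positive cells of the same phase. Their summed CPM was 1349 to 2122 in members and 3203 to 5333 in Lgr5-positive G2/M cells, a ratio of 0.398 to 0.443, and 17 of 20 genes were lower in all 6 libraries. Olfm4, a secreted glycoprotein of crypt-base cells, was at 456 and 764 CPM in -EIPA, 761 and 576 CPM in +EIPA, 926 CPM in -Dox and 888 CPM in +Dox, against 1752 to 3314 CPM in Lgr5-positive G2/M cells. The members' values lay below all of these. At 5000 UMIs per cell an Olfm4 UMI was held by 49.3% to 68.6% of members, 82.2% to 91.8% of Lgr5-positive G2/M cells and 18.9% to 48.5% of enterocyte-gene-high cells, so most members in 5 of 6 libraries still carried it. Enterocyte-gene-high cells are the 5% of kept cells under the limit that were highest in 6 enterocyte genes, and had median depths of 11747 to 17279.5 UMIs.

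Summed genes of mature absorptive cells were low in members but above the Lgr5-positive G2/M cells. Lipid uptake and apolipoprotein genes summed to 1123 to 2623 CPM in members, 865 to 1569 CPM in Lgr5-positive G2/M cells and 47761 to 90305 CPM in enterocyte-gene-high cells. Brush-border and sugar genes summed to 738 to 2397, 656 to 1673 and 9310.5 to 33083 CPM. The sums of both lists were above the Lgr5-positive cells in 6 of 6 libraries, by 1.03 to 1.67 and 1.12 to 1.43 times. By gene, 5 of 10 and 12 of 20 were higher in all 6 libraries, and 0 were lower in all 6. An Apoa1 UMI was held by 9.24% to 37.2% of thinned members and 10.6% to 34.5% of thinned Lgr5-positive G2/M cells. The members' share was the higher in -EIPA replicate 1 (16.6% against 12.8%) and +Dox (37.2% against 33.4%), and the lower in the other libraries. Fabp1, a fatty acid binding protein of enterocytes, was at 379.7 and 291 CPM in -EIPA, 438 and 442 CPM in +EIPA, 884 CPM in -Dox and 1429 CPM in +Dox.

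Genes of secretory fate varied between libraries. Notch and secretory progenitor genes were at 0.717 to 0.832 times the Lgr5-positive G2/M cells, 0.965 to 1.26 times the S-phase cells and 0.816 to 1.04 times the other kept cells. Hes1, a Notch target that holds cells in the absorptive lineage, had a UMI in 40% to 51.2% of thinned members. The Hes1 share was 50.4% to 59.5% in Lgr5-positive G2/M cells, 37.6% to 51.1% in S-phase cells and 14.8% to 33.7% in enterocyte-gene-high cells. Atoh1, the factor that commits cells to secretory fates, was counted in few thinned members (1.71% and 3.04% in -EIPA, 1.20% and 3.15% in +EIPA, 3.32% in -Dox and 6.67% in +Dox), and in 0.336% to 0.871% of enterocyte-gene-high cells, which should lack it. The Atoh1 share was 1.87% to 3.58% in Lgr5-positive G2/M cells and 1.21% to 6.72% in S-phase cells. Lyz1, the lysozyme of Paneth cells, was counted in 25.4% to 78.9% of thinned members and 20% to 77.9% of enterocyte-gene-high cells, which should lack it. The levels were less alike than these shares. Paneth genes summed to 1098 and 2954 CPM in -EIPA, 2713 and 4026 CPM in +EIPA, 3550.0 CPM in -Dox and 10134 CPM in +Dox in members, and to 1250.1 and 4334 CPM in -EIPA, 757 and 2715 CPM in +EIPA, 938 CPM in -Dox and 2054 CPM in +Dox in enterocyte-gene-high cells. Members were above those cells in both +EIPA libraries, -Dox and +Dox and below them in -EIPA. Goblet genes summed to 1102 to 4405 CPM in members and 499 to 1511 CPM in enterocyte-gene-high cells. Against all other kept cells, Paneth genes were at 0.145 to 0.507 times and goblet genes at 0.219 to 0.597 times. The source of these UMIs in members was not tested. Tuft genes summed to at most 10.4 CPM and blood, stromal and endothelial genes to at most 1.01 CPM, with 5 of the 10 latter genes at 0 in each library. By these markers the members were cycling epithelial cells with less of the stem cell genes than Lgr5-positive cells of the same phase, and with lower sums of enterocyte, Paneth, goblet and enteroendocrine genes than the other kept cells. No lineage is named beyond progenitors.

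**Figure D2:**
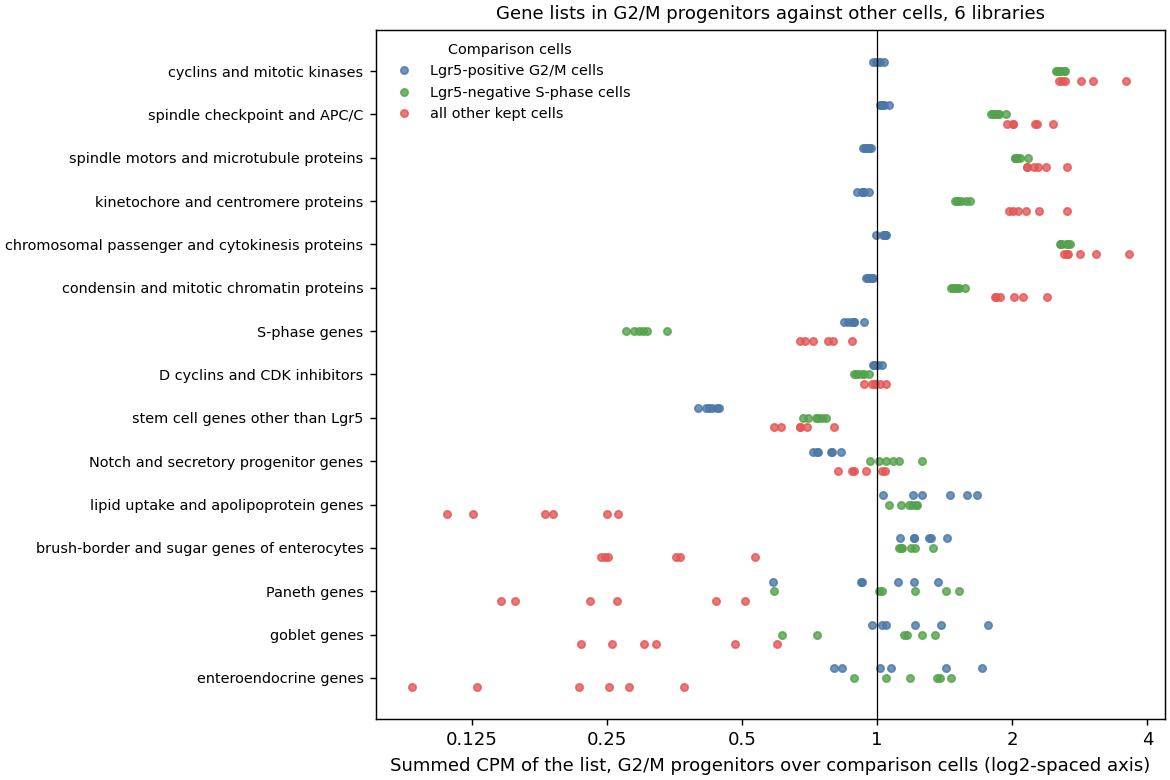
Summed CPM of 15 gene lists in members over that in 3 groups of other cells, 1 dot per library, on a log2-spaced axis. The 6 mitosis lists lie at 2.05 to 2.66 times the other kept cells when summed together, S-phase genes lie below 1 against each group, and stem cell genes other than Lgr5 lie at 0.398 to 0.443 times the Lgr5-positive G2/M cells.

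The effect of EIPA on members was then tested. The rule does not use the treatment, but it uses Lgr5 and genes of mitosis. Genes that vary with these are not independent of the choice of members. With 2 libraries per group and 11373 genes tested, edgeR's quasi-likelihood test called 0 at a Benjamini-Hochberg adjusted p of 0.05 (0%), and 609 had an unadjusted p under 0.05. DESeq2 called 35 of 14738 genes (0.237%).

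The replicate number marks the experiment, and with it as a block edgeR called 523 genes, 339 higher (2.98% of those tested) and 184 lower (1.62%). These shares are the background for the counts of the blocked fit given below for each list. The lists were chosen with earlier results of these data known, so a count above these shares is a description only. The blocked fit leaves 1 residual degree of freedom, so its p-values rest mainly on a spread shared across genes. None of the genes named next passed in the edgeR fit without the block, and log2 fold changes of +EIPA over -EIPA, given ± SE, are from the fit without it. Nothing sets a list apart from the rest of the genes here beyond its count and median, since no test of lists was made. The median over all genes was 0.00. Of the 11373 genes tested, 3048 had both +EIPA CPM values below both -EIPA values and 1113 had both above. Groups that do not overlap are thus frequent, more so on the lower side.

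For genes of the mitosis lists the comparison holds no test of EIPA. The same G2/M limit was applied in each library, and these genes vary with the 5 rule genes, so the choice of members can hold their levels near each other in -EIPA and +EIPA. Their values are given as a description. The list medians ran from -0.02 to 0.06 over the 6 lists, and from -0.08 to 0.09 with a library left out. Top2a was at 490.3 and 438 CPM (-EIPA) against 532 and 494 CPM (+EIPA) (log2 fold change 0.21 ± 0.10). The largest log2 fold change among the mitosis lists was that of Kif14, a kinesin of cytokinesis, at 20.8 and 19.3 CPM (-EIPA) against 15.3 and 15.5 CPM (+EIPA) (-0.31 ± 0.11), and among kinetochore genes that of Hjurp, the chaperone that loads Cenpa, at 103 and 91.9 CPM (-EIPA) against 85 and 80.3 CPM (+EIPA) (-0.17 ± 0.10). Cdk1 had a log2 fold change of 0.10 ± 0.12, Birc5 of -0.08 ± 0.13 and Ube2s of 0.11 ± 0.09. S-phase genes, whose level the limit can hold too, had a median of -0.05 (-0.10 without +EIPA replicate 2).

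Most immediate early genes, and the growth factor genes Hbegf and Pdgfa, passed as lower with EIPA in the blocked fit. Fos, a subunit of the AP-1 factor that cells induce within minutes of a growth stimulus, was at 276 and 339 CPM in -EIPA and at 86.7 and 109 CPM in +EIPA. Its log2 fold change was -1.58 ± 0.17 (edgeR adjusted p = 0.115 without and 1.92e-09 with the block). Jun, its partner in AP-1, was at 263 and 308 CPM (-EIPA) against 131 and 113 CPM (+EIPA), and neither gene's groups overlapped. Of the 13 genes of the immediate early list, 10 had a negative log2 fold change, with a median of -0.97 over the list, and 9 passed as lower with the block and 0 as higher. The list also holds the heat shock genes Hspa1a and Hspa1b, at most 1.37 and 3.40 CPM over all kept cells of a library. DESeq2 called 7 of them lower. In fits that leave out 1 library the median was -1.11 to -0.72.

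Fosb, a relative of Fos, was at 28.6 and 19.7 CPM (-EIPA) against 5.24 and 3.11 CPM (+EIPA) (log2 fold change -2.50 ± 0.28). Egr1, a zinc finger factor induced by growth factors, was at 109 and 128 CPM (-EIPA) against 55.6 and 60.2 CPM (+EIPA) (-0.97 ± 0.12). Both were lower in each +EIPA library. Hbegf, a ligand of the EGF receptor, was at 90.9 and 90 CPM in -EIPA and at 37.5 and 34.6 CPM in +EIPA, with the smallest adjusted p of the fit without the block (0.0607, edgeR, shared with Guca2b) at a log2 fold change of -1.26 ± 0.09. Pdgfa, a platelet-derived growth factor chain that epithelium sends to the mesenchyme, was at 320.3 and 309.6 CPM (-EIPA) against 165 and 149 CPM (+EIPA) (-0.94 ± 0.09). Klf6, a zinc finger factor of the early response, was at 142 and 143 CPM (-EIPA) against 81.4 and 78.7 CPM (+EIPA) (-0.77 ± 0.09). In these 3 genes the libraries of a group lay close together, and the groups did not overlap.

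Genes of cholesterol synthesis passed as lower in the blocked fit, with 1 exception. All 12 of 12 had a negative log2 fold change, with a median of -0.36, and 11 passed as lower with the block and 1 in DESeq2. Insig1, which holds the sterol sensor in the endoplasmic reticulum and is itself a target of the sterol pathway, was at 110.2 and 112 CPM (-EIPA) against 65.8 and 59 CPM (+EIPA) (log2 fold change -0.77 ± 0.10, edgeR adjusted p = 0.148 without and 8.3e-06 with the block). Fdps, which makes farnesyl diphosphate, was at 681 and 582 CPM (-EIPA) against 481 and 486 CPM (+EIPA) (-0.32 ± 0.10). Idi1, an isomerase one step earlier, was at 334 and 367 CPM (-EIPA) against 236 and 263 CPM (+EIPA) (-0.43 ± 0.11), and Lss, which closes the sterol rings, at 63.2 and 51.7 CPM (-EIPA) against 43.2 and 37.8 CPM (+EIPA) (-0.44 ± 0.12). In each of these 4 genes both +EIPA values lay below both -EIPA values, as they did in 3048 of the 11373 genes tested. With a library left out the list median was -0.41 to -0.30.

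The list of ATF4, the factor of amino acid and endoplasmic reticulum stress, and its targets passed as higher in the blocked fit for most genes. All 13 of 13 had a positive log2 fold change, with a median of 0.77 (0.45 to 1.08 when a library was left out, the lowest without -EIPA replicate 2), and 10 passed as higher with the block and 3 in DESeq2. Chac1, which degrades glutathione, was at 3.61 and 3.19 CPM (-EIPA) against 8.57 and 13.3 CPM (+EIPA) (log2 fold change 1.78 ± 0.27, edgeR adjusted p = 0.292 without and 6.92e-05 with the block). Psph, the last enzyme of serine synthesis, was at 77.1 and 47.8 CPM (-EIPA) against 145 and 111 CPM (+EIPA) (1.11 ± 0.23), and Phgdh, the first, at 168 and 122 CPM (-EIPA) against 252 and 176 CPM (+EIPA) (0.63 ± 0.20). Atf4 itself was at 163 and 159 CPM (-EIPA) against 159 and 154 CPM (+EIPA) (0.02 ± 0.08). The sign of Atf4 rests on the scaling, since in CPM both +EIPA values lay slightly below both -EIPA values.

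Some targets of p53 passed as higher too. Of 10 tested, 9 had a positive log2 fold change, with a median of 0.52, and 6 passed as higher with the block and 1 in DESeq2. Phlda3, which restrains the kinase Akt, was at 11.6 and 13.9 CPM (-EIPA) against 29.6 and 34.3 CPM (+EIPA) (log2 fold change 1.39 ± 0.15, edgeR adjusted p = 0.115 without and 1.12e-06 with the block). Cdkn1a, the p21 inhibitor of cyclin-dependent kinases, was at 62.6 and 57.9 CPM (-EIPA) against 78.3 and 96.9 CPM (+EIPA) (0.61 ± 0.14), and Ccng1, cyclin G1, at 35.2 and 34.5 CPM (-EIPA) against 45.6 and 50.1 CPM (+EIPA) (0.53 ± 0.10). Bax, an effector of apoptosis, was at 202 and 212 CPM (-EIPA) against 239 and 278 CPM (+EIPA) (0.39 ± 0.12). Btg2, a growth-restraining gene of the list of D cyclins and inhibitors, went the other way, at 65.4 and 72.3 CPM (-EIPA) against 41.5 and 49 CPM (+EIPA) (-0.54 ± 0.13), and of that list of 12, 3 passed as higher and 2 as lower with the block.

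Among stem cell genes, 2 of 18 tested passed as higher and 1 as lower with the block, with a median of 0.16 (0.04 without -EIPA replicate 1, 0.24 without -EIPA replicate 2 and 0.09 without +EIPA replicate 1). Ascl2, the transcription factor of Lgr5-positive stem cells, was at 15.8 and 16.4 CPM (-EIPA) against 34 and 25.9 CPM (+EIPA) (log2 fold change 0.95 ± 0.15, edgeR adjusted p = 0.292 without and 0.000199 with the block). DESeq2 called Ascl2 with an adjusted p of 0.0225. Olfm4 was at 456 and 764 CPM (-EIPA) against 761 and 576 CPM (+EIPA), and its groups overlapped. Ascl2 in members stayed below the Lgr5-positive G2/M cells, which held 42.3 and 47.8 CPM in -EIPA and 63.1 and 59 CPM in +EIPA. Most stem cell genes vary with Lgr5, which the rule used, so these values are not independent of the choice of members. Over all kept cells Lgr5 was at 59.1 and 58.3 CPM in -EIPA and 51.6 and 47.5 CPM in +EIPA. The part of that choice in the Ascl2 values was not tested.

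Some genes of absorptive cells passed as higher with EIPA in the blocked fit. Guca2b, the uroguanylin hormone of villus epithelium, was at 25.3 and 22.4 CPM (-EIPA) against 59.5 and 64.7 CPM (+EIPA) (log2 fold change 1.45 ± 0.11, edgeR adjusted p = 0.0607 without and 1.03e-07 with the block). Guca2a, guanylin, was at 29.1 and 25.9 CPM (-EIPA) against 61.9 and 49.3 CPM (+EIPA) (1.08 ± 0.13). Apoa1, an apolipoprotein of enterocytes, was at 65.7 and 36.3 CPM (-EIPA) against 157 and 161 CPM (+EIPA) (1.72 ± 0.25), and Apoc3, another, at 12.5 and 6.55 CPM (-EIPA) against 22.1 and 34.8 CPM (+EIPA) (1.69 ± 0.34). Lipid uptake and apolipoprotein genes had a median of 0.43 (0.22 without -EIPA replicate 2) with 6 of 10 passing as higher with the block, and brush-border and sugar genes a median of 0.30 (0.18 without it) with 9 of 19. DESeq2 called 2 and 0 of them. In the other kept cells of the same libraries, lipid uptake and apolipoprotein genes summed to 7232 and 4249 CPM in -EIPA and 12814 and 11654 CPM in +EIPA, and the part of free RNA from those cells in the members' values was not tested.

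Bcl2l15, a BCL2 relative of gut epithelium, was at 59.9 and 49.5 CPM (-EIPA) against 104 and 86.3 CPM (+EIPA) (0.86 ± 0.13). Gsta1, a glutathione transferase, was at 132 and 145 CPM (-EIPA) against 222 and 317 CPM (+EIPA) (1.03 ± 0.19), and Rbp7, a retinol binding protein, at 28.4 and 26.4 CPM (-EIPA) against 11.9 and 14 CPM (+EIPA) (-1.0 ± 0.13). The first 2 were higher and the last lower in each +EIPA library, as the plot of 16 genes shows. Over all kept cells the directions were the same. There Bcl2l15 was at 70.4 and 58 CPM (-EIPA) against 127 and 115 CPM (+EIPA) and Gsta1 at 629 and 367 CPM (-EIPA) against 1508 and 1315 CPM (+EIPA). Rbp7 was at 16.2 and 14.1 CPM (-EIPA) against 6.56 and 7.06 CPM (+EIPA). The part of free RNA from other cells in these values was not tested. With the block each of the 16 passed, but they were chosen by the p-value of the same contrast.

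**Figure D3:**
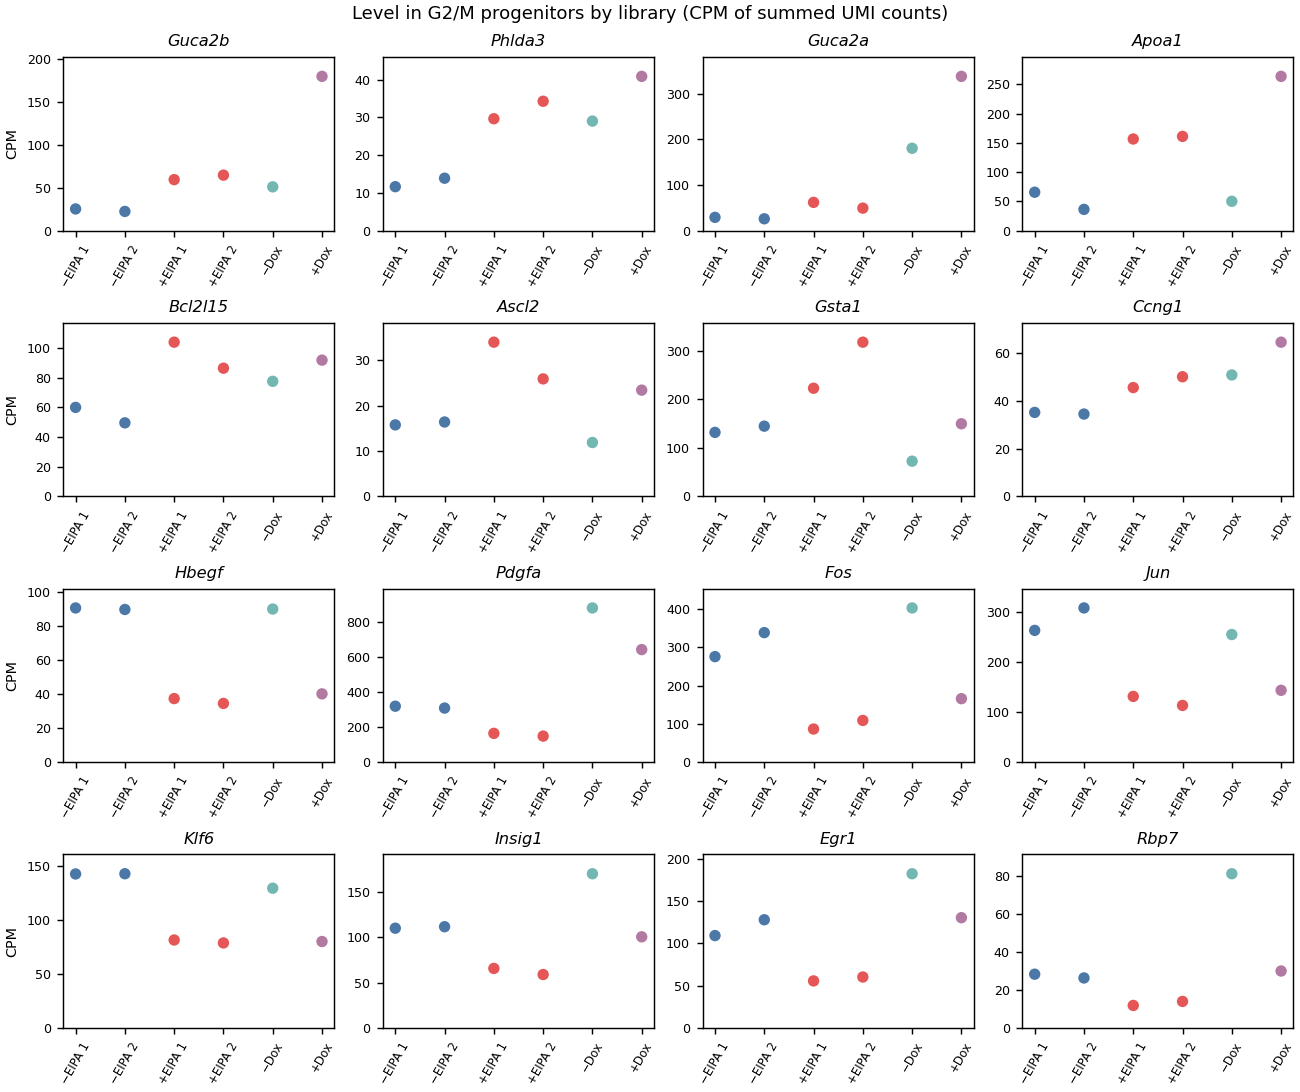
Levels (CPM of summed UMI counts, linear axes from 0) of the 16 genes with the smallest p in each direction, 1 dot per library: blue -EIPA, red +EIPA, teal -Dox and purple +Dox. Both +EIPA dots lie on one side of both -EIPA dots in every panel, for example 37.5 and 34.6 against 90.9 and 90 CPM for Hbegf.

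Genes of regeneration differed unevenly between libraries. Of 9 regenerative genes tested, 9 had a positive log2 fold change and 9 passed as higher with the block and 1 in DESeq2, with a median of 1.76. The list summed to 188 and 308 CPM in the -EIPA members and 295 and 810.1 CPM in the +EIPA members, so that +EIPA replicate 1 lay within the -EIPA range and +EIPA replicate 2 far above it. Areg, amphiregulin, another EGF receptor ligand, was at 22.1 and 32.8 CPM (-EIPA) against 49.9 and 126 CPM (+EIPA) (log2 fold change 1.75 ± 0.44), and Ly6a, the Sca-1 surface protein of the fetal-like state, at 7.14 and 11 CPM (-EIPA) against 25.9 and 70.9 CPM (+EIPA) (2.48 ± 0.49). With a library left out the list median was 0.84 to 2.67, the lowest without +EIPA replicate 2 and the highest without -EIPA replicate 2, with 2.65 without +EIPA replicate 1.

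Of 12 Paneth genes, 12 had a positive log2 fold change (median 0.97, but 0.37 without +EIPA replicate 2, 0.45 without -EIPA replicate 1 and 1.73 without -EIPA replicate 2), and 10 passed as higher with the block. DESeq2 called 0 of the Paneth and 0 of the goblet genes. Defa24, an alpha-defensin, was at 438 and 1347 CPM (-EIPA) against 1523 and 1984 CPM (+EIPA). Itln1, intelectin, was at 418 and 689 CPM (-EIPA) against 674 and 686 CPM (+EIPA). Values of +EIPA and -EIPA overlapped for Itln1, and defensin genes have near-identical copies among which reads may be split. Of 9 goblet genes, 4 passed as higher with the block (median 0.37, and 0.16 without +EIPA replicate 2, 0.20 without -EIPA replicate 1 and 0.59 without +EIPA replicate 1), with Spink4, a peptidase inhibitor of goblet cells, at 312 and 586 CPM (-EIPA) against 665 and 961 CPM (+EIPA). Summed Paneth genes in the other kept cells of the same libraries were 7569.8 and 12879 CPM in -EIPA and 10298 and 25774 CPM in +EIPA. Their part in the members' values was not tested.

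**Figure D4:**
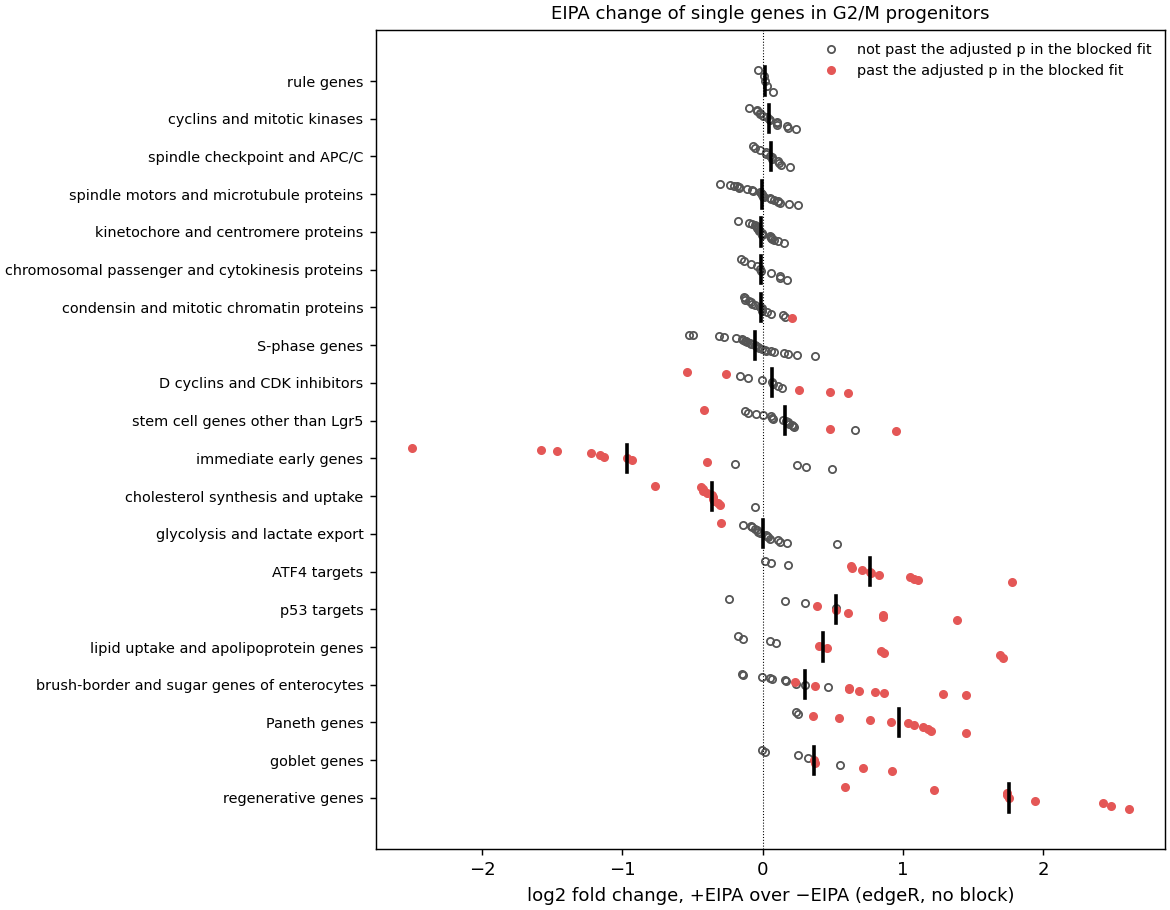
log2 fold change of single genes with EIPA in members, by list, from the edgeR fit without a block, with the list median as a bar; filled dots passed an adjusted p of 0.05 in the blocked fit. The mitosis lists sit near 0 (as do the rule genes), where the choice of members can hold them, immediate early genes (median -0.97) and cholesterol genes (-0.36) lie to the left, and ATF4 targets (0.77) and regenerative genes (1.76) to the right.

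Whether EIPA acted differently in members than in the other 2 cycling groups was tested as an interaction, with both cell groups of a library in 1 fit. Against the Lgr5-positive G2/M cells, 19 of 11828 genes (0.161%) differed, 15 with a higher log2 fold change in members and 4 with a lower one. Lgr5 divides these groups, so a difference in genes that vary with Lgr5 is not independent of the division. The log2 fold change of Pdgfa was the more negative in members. Pdgfa was at 320.3 and 309.6 CPM in -EIPA and 165 and 149 CPM in +EIPA in members and 257 and 288 CPM in -EIPA and 178 and 173 CPM in +EIPA in Lgr5-positive cells, a difference in log2 fold change of -0.36 ± 0.06 (SE, edgeR adjusted p = 0.0105). Agr2, a disulfide isomerase of secretory cells, was at 229.7 and 306 CPM in -EIPA and 235 and 275 CPM in +EIPA in members and 205 and 282 CPM in -EIPA and 254 and 316 CPM in +EIPA in Lgr5-positive cells (-0.30 ± 0.05, adjusted p = 0.00907).

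Areg was at 22.1 and 32.8 CPM in -EIPA and 49.9 and 126 CPM in +EIPA in members and at 16.2 and 18.2 CPM in -EIPA and 20.1 and 24.9 CPM in +EIPA in Lgr5-positive cells (1.29 ± 0.21, edgeR adjusted p = 0.00907). Of members and Lgr5-positive cells, only members exceeded 100 CPM, in +EIPA replicate 2, and without that library the difference was 0.62. Over all kept cells Areg was at 52.7 and 53.1 CPM in -EIPA and 115 and 164 CPM in +EIPA, so a high level was not particular to members. Atf3, a stress-induced member of the immediate early list, was at 30.4 and 37.5 CPM in -EIPA and 8.09 and 14.9 CPM in +EIPA in members and 31.8 and 38.8 CPM in -EIPA and 6.79 and 3.22 CPM in +EIPA in Lgr5-positive cells (1.43 ± 0.28, adjusted p = 0.0395), so it was lower with EIPA in both and less so in members. With the block its adjusted p was 0.103, and without +EIPA replicate 2 the difference was 0.31 (adjusted p = 0.933).

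The other 6 named genes of this comparison had 8 to 828 UMIs in each WT library and cell group. Ccl6, a chemokine, was at 1.94 and 4.13 CPM in -EIPA and 13.9 and 12.1 CPM in +EIPA in members and 2.67 and 7.83 CPM in -EIPA and 4.37 and 6.73 CPM in +EIPA in Lgr5-positive cells (1.96 ± 0.27), and Thbs1, thrombospondin 1, at 2.20 and 5.31 CPM in -EIPA and 5.12 and 4.93 CPM in +EIPA and 5.20 and 9.48 CPM in -EIPA and 3.44 and 3.28 CPM in +EIPA (1.53 ± 0.26). Both kept their call in each fit with a library left out. Cck, the hormone cholecystokinin, was at 20.5 and 16.9 CPM in -EIPA and 51.8 and 24 CPM in +EIPA in members and 21.7 and 50.7 CPM in -EIPA and 31.2 and 21.5 CPM in +EIPA in Lgr5-positive cells (1.45 ± 0.27), and F3, tissue factor, at 4.50 and 7.38 CPM in -EIPA and 7.5 and 24.9 CPM in +EIPA and 1.80 and 3.61 CPM in -EIPA and 1.30 and 4.37 CPM in +EIPA (1.39 ± 0.25). F3 was above the Lgr5-positive cells in each of the 4 libraries, and Cck in both +EIPA libraries and neither -EIPA library. Nts, neurotensin, was at 0.705 and 17.3 CPM in -EIPA and 2.74 and 8.64 CPM in +EIPA in members and 0.938 and 2.81 CPM in -EIPA and 4.37 and 10.4 CPM in +EIPA in Lgr5-positive cells (-2.62 ± 0.37), and Tac1, the precursor of substance P, at 3.88 and 6.61 CPM in -EIPA and 6.54 and 0.985 CPM in +EIPA and 5.12 and 6.30 CPM in -EIPA and 24.3 and 2.79 CPM in +EIPA (-1.71 ± 0.25). These 4 lost the call when 1 library was left out, namely Cck (0.55), F3 (1.21) and Nts (0.052) without -EIPA replicate 2, F3 (1.40) also without +EIPA replicate 2, and Tac1 (-1.38) without +EIPA replicate 1. None of the cholesterol, ATF4 or p53 genes differed between the 2 groups at the threshold, which does not show that they act alike. For Fos the difference was 0.02 ± 0.08, and the list medians in Lgr5-positive cells were -0.90 for immediate early genes, -0.39 for cholesterol genes and 0.59 for ATF4 targets.

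Against the S-phase cells, 8 of 11779 genes (0.0679%) differed, 3 higher and 5 lower in members, and 20 with the experiment as a block. A secretory gene, Agr2, had the smallest adjusted p among those with a lower log2 fold change in members. Agr2 was at 203 and 269 CPM in -EIPA and 312 and 477 CPM in +EIPA in the S-phase cells against 229.7 and 306 CPM in -EIPA and 235 and 275 CPM in +EIPA in members (-0.79 ± 0.08, edgeR adjusted p = 3.39e-05). Defa30, an alpha-defensin, was at 27.1 and 59.5 CPM in -EIPA and 118 and 234 CPM in +EIPA in S-phase cells and 43.9 and 91.8 CPM in -EIPA and 103 and 142 CPM in +EIPA in members (-1.14 ± 0.12, adjusted p = 4.01e-05). Ccl9, a chemokine, was at 5.04 and 7.86 CPM in -EIPA and 15.1 and 23.7 CPM in +EIPA and 9.26 and 13.8 CPM in -EIPA and 10.4 and 15.7 CPM in +EIPA (-1.41 ± 0.16), and Apoa4, an apolipoprotein, at 25 and 10.1 CPM in -EIPA and 56.4 and 41.2 CPM in +EIPA and 40 and 12.8 CPM in -EIPA and 50.3 and 40.1 CPM in +EIPA (-0.64 ± 0.12).

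Top2a differed in the other direction, with a difference of 0.24 ± 0.04 (edgeR adjusted p = 0.0255), from 312 and 264 CPM in -EIPA and 284 and 256 CPM in +EIPA in S-phase cells and 490.3 and 438 CPM in -EIPA and 532 and 494 CPM in +EIPA in members. The level of Top2a varies with the genes by which both groups of cells were chosen, so this difference is not independent of that choice. Areg had a difference of 0.59 ± 0.11 and Sprr1a, a cornified envelope protein, one of 2.52 ± 0.28. Members held 6 and 34 UMIs of Sprr1a in -EIPA and 25 and 503 in +EIPA. The S-phase cells held 7 and 151 in -EIPA and 36 and 435 in +EIPA. Without -EIPA replicate 2 the number of genes called was 0, with 476 at an unadjusted p under 0.05, so each call of this comparison is lost without that library. The difference was then -0.79 for Agr2, -1.17 for Defa30, 0.27 for Top2a, 0.55 for Areg, -1.45 for Ccl9, -0.78 for Apoa4 and 0.67 for Sprr1a, so only that of Sprr1a moved by more than 1.5 times. The remaining gene called, Tff1, a trefoil peptide outside the naming rule, was at 0 and 12.9 CPM in -EIPA and 0.238 and 3.41 CPM in +EIPA in members and 0.219 and 0.156 CPM in -EIPA and 0.104 and 9.42 CPM in +EIPA in S-phase cells, too near 0 for a fold.

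In the CRISPR line 1 library stands on each side, so the values below have no replicate check and no test, and their exact Poisson intervals cover counting error only. Ratios are log2 of +Dox over -Dox with 20 CPM added to both, for 5661 genes at 20 CPM or more in either library. Their median was -0.06, with 1.13% above 0.5 and 0.883% below -0.5.

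The 8 highest ratios were those of Paneth genes, of apolipoproteins and of Guca2b. Apoa1 was at 50.1 CPM in -Dox (95% interval 46.5 to 54) and 264 CPM in +Dox (252 to 276), or 2.02 as a log2 ratio. Ang4, an antimicrobial ribonuclease of Paneth cells, was at 62.8 CPM in -Dox and 272 CPM in +Dox (1.82), and Mmp7, the protease that activates defensins, at 45.8 CPM in -Dox and 188 CPM in +Dox (1.66). Defa24 (1.60), Lyz1 (1.56), Apoa4 (1.53), Guca2b (1.49) and Apoc2, a cofactor of lipoprotein lipase (1.49), complete the 8 highest. All 7 Paneth genes with a ratio were above 0.5, against 4 of 9 lipid uptake and apolipoprotein genes (2 below 0) and 2 of 9 brush-border and sugar genes (1 below 0). In the other kept cells, Paneth genes summed to 6996 CPM in -Dox and 23190.1 CPM in +Dox, and in enterocyte-gene-high cells to 938 CPM in -Dox and 2054 CPM in +Dox. Lipid uptake and apolipoprotein genes summed to 7235 CPM in -Dox and 14423 CPM in +Dox in the other kept cells, where Apoa1 was at 319.7 and 1508 CPM. The part of free RNA from those cells in the members' values was not tested.

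Among the lowest ratios, Fos was at 403 CPM in -Dox (95% interval 393 to 414) and 166 CPM in +Dox (157 to 176) (-1.19) and Hbegf at 90.3 CPM in -Dox (95% interval 85.3 to 95.4) and 40.3 CPM in +Dox (35.7 to 45.3) (-0.87). Bnip3, a mitophagy receptor, was at 74.7 CPM in -Dox and 27.2 CPM in +Dox (-1.0) and Egln3, a prolyl hydroxylase of hypoxia-inducible factor, at 39.2 CPM in -Dox and 13.2 CPM in +Dox (-0.83). Dmbt1, a mucosal scavenger protein (-1.10), Rbp7 (-1.02), Scd1, a fatty acid desaturase (-0.84), and 2610528A11Rik (-1.16) complete the 8 lowest. Intervals of the -Dox and +Dox values did not meet for Fos or Hbegf.

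A ratio below 0 was the more common case, with 3699 of 5661 genes. By list, immediate early genes had ratios below 0 for 8 of 8 (median -0.56, 4 under -0.5), cholesterol genes for 12 of 12 (median -0.45) and ATF4 targets above 0 for 8 of 8 (median 0.59). The list medians with EIPA had the same signs, from libraries that are not shared with the CRISPR line. For genes of glycolysis and lactate export, 14 of 14 with a Dox ratio were below 0 (median -0.52), while with EIPA their median was 0.00 (-0.20 without -EIPA replicate 2, -0.12 without +EIPA replicate 1, 0.14 without +EIPA replicate 2 and 0.26 without -EIPA replicate 1) and 1 of 16 passed with the block. Ldha, lactate dehydrogenase, was at 2053 and 1551 CPM in -EIPA, 1799 and 1571 CPM in +EIPA, 1781 CPM in -Dox and 1184 CPM in +Dox, and Gapdh, a glycolytic enzyme, at 2084 and 1893 CPM in -EIPA, 2120.4 and 2168 CPM in +EIPA, 2059 CPM in -Dox and 1845 CPM in +Dox. For Slc16a3, a lactate exporter, the values were 76.9 and 48.7 CPM in -EIPA, 67.1 and 57.2 CPM in +EIPA, 53.5 CPM in -Dox and 23.6 CPM in +Dox. Whether the list differs between EIPA and Dox was not tested, since Dox has 1 library on each side. The mitosis lists had Dox medians from -0.09 to 0.03, with no gene past 0.5 in either direction, under the same G2/M limit in both libraries.

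**Figure D5:**
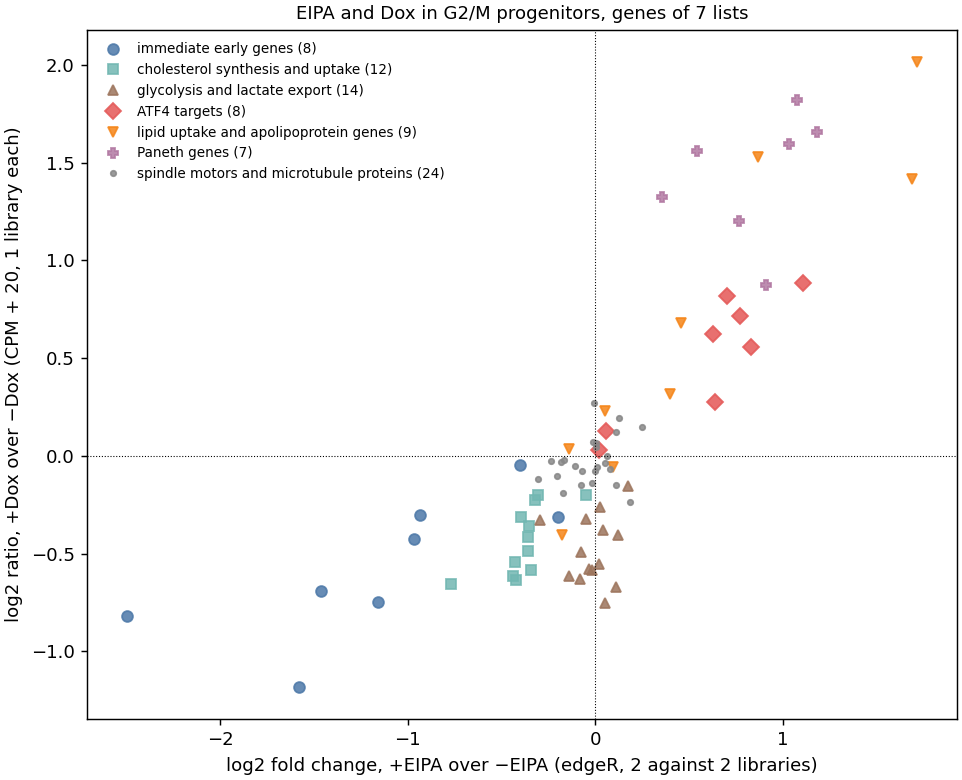
Genes of 7 lists in members, with the log2 fold change with EIPA (edgeR, 2 against 2 libraries) on the x axis and the log2 ratio of +Dox over -Dox (20 CPM added, 1 library each) on the y axis; the legend gives the number of genes. Glycolysis genes sit below 0 on the y axis (median -0.52) at about 0 on the x axis, and spindle motors and microtubule proteins lie around 0 on both.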

How the data were processed

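The 6 libraries were 10x Genomics single-cell libraries of day 3 organoids, 2 of WT -EIPA, 2 of WT +EIPA, and 1 each of CRISPR -Dox and CRISPR +Dox. The authors used Cell Ranger 6.1.2 to align reads to mm10 (GRCm38) and to call cells. The deposited values are raw UMI counts per gene and cell barcode. No removal of doublets or ambient RNA is stated. Sequences are from RefSeq and gene positions from GENCODE, of that build. Members and gene lists were chosen with earlier results of these data known.

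Cells were limited as given above. Scrublet (scanpy 1.11.5, expected rate 0.1) called doublets per library at score thresholds of 0.151 to 0.266, and these cells were removed in an alternative only. Thinning drew 5000 UMIs per cell and left out shallower cells (690 to 2497 kept cells per library). Libraries held 14319 to 25481 barcodes, of which 12083 to 18211 were kept.

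Counts were summed per library over members and compared by the quasi-likelihood test of edgeR 4.0.16 (R 4.3.3) after TMM scaling and filterByExpr, with p-values adjusted by Benjamini-Hochberg for every gene in the fit and called at 0.05. An SE was taken as the absolute log2 fold change divided by the square root of F. DESeq2 1.42.0 was an alternative. The difference tests used both cell groups of the 4 WT libraries with the library as a block. The fit without the replicate block, DESeq2 and the difference fits were run on simulated counts with known changes and no effect of experiment. The fit with the replicate block was not run on simulated counts. The labels do not say whether replicates came from separate cultures, while the study describes separate organoid preparations, so p-values measure the spread between 2 such libraries per group.

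In the study's source data the replicate number marks experiment 1 or 2, and libraries of the same number deviated together from the mean of their group, with a correlation of 0.572 across 11373 genes. The block was not in the reported fit, and its values stand beside it where they differ.

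Named genes for EIPA are the 8 of smallest p in each direction with a mean of 20 CPM or more and the same direction in both experiments, since none passed. For the difference tests they are up to 6 per direction past the threshold and of the same sign in both experiments, by size, for Dox the 8 highest and 8 lowest ratios, and for a list the 2 of highest CPM and the 2 of largest change, with rule genes and Lgr5. The gene the guide RNA targets is not reported here. Chga, Neurog3, Tff1, Gins2, Rrm1, Tyms and Tk1 are outside these rules and were chosen after their values were seen. The gene lists hold 353 genes in 26 lists. Alternatives were other scaling, tool, filter, block, limits on cells, rule thresholds, thinning, doublets and each library left out.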

Additional observations from a re-analysis of the deposited data

Results flagged for a closer look

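The EIPA change in members differed by the interaction test from that in the Lgr5-positive G2/M cells for 10 named genes. The differences in log2 fold change were 1.96 for Ccl6, 1.53 for Thbs1, 1.45 for Cck, 1.43 for Atf3, 1.39 for F3, 1.29 for Areg, -2.62 for Nts, -1.71 for Tac1, -0.36 for Pdgfa and -0.30 for Agr2. Pdgfa and Agr2 rest on 1387 to 5243 UMIs in each WT library and cell group, while in the members of -EIPA replicate 1 Nts had 8 UMIs, Ccl6 22 and Thbs1 25.

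Against the Lgr5-negative S-phase cells the differences were 2.52 for Sprr1a, 0.59 for Areg, 0.24 for Top2a, -1.41 for Ccl9, -1.14 for Defa30, -0.79 for Agr2 and -0.64 for Apoa4. That of Top2a is not independent of the genes by which both groups of cells were chosen. Sprr1a had 6 UMIs in the members and 7 in the S-phase cells of -EIPA replicate 1. In the S-phase cells the summed Paneth genes were 1072 and 2438 CPM in -EIPA and 1908 and 6848 CPM in +EIPA, and the part of secretory cells or free RNA in these differences was not tested.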

How the results depend on the processing

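The number of genes called for EIPA in members was 0 and stayed 0 with no scaling, stricter limits on cells, the threshold at 25, the rule after thinning, and with called doublets or cells of high UMI count removed. It was 1 with the threshold at 10 (Apoa1), 35 with DESeq2 (19 higher), 345 with no filter on low counts (236 higher), and 0 to 60 when a WT library was left out (24 without -EIPA replicate 1, 0 without -EIPA replicate 2, 60 without +EIPA replicate 1 and 11 without +EIPA replicate 2). With the replicate block, that is the pairing by experiment, it was 523. The cause of these shifts was not tested. The 16 named EIPA genes were chosen by the p-value and direction of this contrast, so the alternatives are no independent check of them. All 16 kept their direction in every alternative run. None passed in the reported fit, but 16 passed with no filter on low counts and with the replicate block, 15 with DESeq2, 1 with the threshold at 10, and 0 to 9 with a library left out.

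For the difference against Lgr5-positive G2/M cells the count of 19 became 91 with no filter and 35 to 109 with a library left out (87 without -EIPA replicate 1, 58 without -EIPA replicate 2, 109 without +EIPA replicate 1 and 35 without +EIPA replicate 2), 22 with no scaling and 20 with the replicate block. Against S-phase cells the count of 8 became 55 with no filter, 20 with the replicate block and 0 to 35 with a library left out (0 without -EIPA replicate 2, 35 without +EIPA replicate 1 and 16 without +EIPA replicate 2), and was 6 with no scaling. Of the single differences, Nts ranged from -2.97 to 0.052 with a library left out, and changed sign without -EIPA replicate 2. The ratio of member shares moved from 0.758 to 0.844 after thinning and was 0.708 to 0.776 in the other alternatives. In single experiments it was 0.718 and 0.799, and 0.784 and 0.904 after thinning. A fit without a library leaves 1 library in its group, assumed to vary like the other group. With no scaling the median of all genes shifted by -0.06, so a list median within that distance of 0 has no settled sign. Depth limits every share of Lgr5-negative cells.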

Other observations

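Few acid and bicarbonate transporter genes passed a test for EIPA in members. Of 12 tested, 1 passed as higher and 1 as lower with the block (median 0.02, with -0.13 without -EIPA replicate 2, -0.09 without +EIPA replicate 1, 0.15 without +EIPA replicate 2 and 0.22 without -EIPA replicate 1). Slc4a7, a sodium bicarbonate cotransporter, was at 83.9 and 69.4 CPM in -EIPA, 70.6 and 75 CPM in +EIPA, 82.4 CPM in -Dox and 75.4 CPM in +Dox, and Cftr, the chloride and bicarbonate channel, at 66.3 and 59.8 CPM in -EIPA, 66.7 and 52.8 CPM in +EIPA, 88.1 CPM in -Dox and 82.7 CPM in +Dox. Slc26a6, a chloride and bicarbonate exchanger, was at 4.32 and 3.37 CPM in -EIPA, 5.71 and 6.97 CPM in +EIPA, 6.88 CPM in -Dox and 13.5 CPM in +Dox (log2 fold change 0.81 ± 0.23, edgeR adjusted p = 0.673 without and 0.038 with the block). Both +EIPA values and the +Dox value of Slc26a6 lay above the -EIPA and -Dox values of their line, on 48 to 96 UMIs a library. Over all kept cells Slc26a6 was at 19.5 and 11.8 CPM in -EIPA, 39.1 and 32.9 CPM in +EIPA, 25.3 CPM in -Dox and 59.2 CPM in +Dox. The part of free RNA from other cells in the members' values was not tested.

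Notch and secretory progenitor genes had a median log2 fold change of -0.04 with EIPA (-0.07 without -EIPA replicate 1, 0.10 without +EIPA replicate 2 and 0.13 without -EIPA replicate 2), and none of 15 passed in edgeR with or without the block or in DESeq2 (0 at an unadjusted p under 0.05).

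Interferon-linked genes split. Ifi27l2b was at 383 and 473 CPM in -EIPA, 272 and 329 CPM in +EIPA, 408 CPM in -Dox and 419 CPM in +Dox (log2 fold change -0.45 ± 0.16) and Bst2, tetherin, at 17.6 and 20.6 CPM in -EIPA, 23.7 and 25.2 CPM in +EIPA, 22.1 CPM in -Dox and 29.1 CPM in +Dox (0.42 ± 0.13), so with EIPA 1 was lower and the other higher, and 4 of the 10 genes reached the test. Enteroendocrine genes had a median of 1.25 (0.59 without +EIPA replicate 1) with 6 of 10 passing as higher with the block and 0 in DESeq2. Reg4, a lectin of enteroendocrine and deep secretory cells, was at 26.5 and 33.4 CPM in -EIPA, 146 and 62 CPM in +EIPA, 22.1 CPM in -Dox and 96.4 CPM in +Dox. Gip, an incretin hormone, was at 14.4 and 37 CPM (-EIPA) against 19.4 and 227 CPM (+EIPA) and listed at 0 in both CRISPR libraries. Chga, the granin of mature enteroendocrine cells, was counted in 0.615% to 3.39% of thinned members and 0.585% to 4.57% of enterocyte-gene-high cells, a like share. Neurog3, the factor that commits cells to the enteroendocrine fate, was counted in 1.24% to 1.74% of thinned members and 0.534% to 1.87% of Lgr5-positive G2/M cells. It was counted in 0.211% to 1.60% of S-phase cells, against 0% to 0.742% of enterocyte-gene-high cells. Its members' share was above that of the S-phase cells in 5 of 6 libraries, by few cells. Tuft genes reached the test for 3 of 9, with 0 passing with the block.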
